A study of Mus musculus with 6 samples.

Results

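Translation initiation and elongation factors are the proteins that load an mRNA onto the ribosome, find its start codon and carry the ribosome along the reading frame. Their genes were described here in sheets of mouse ear epidermis. The members were all gene symbols in the deposited table that begin with Eif or Eef followed by a digit, and the TPM of the transcripts of each symbol was added up. The rule gave 67 symbols, with 111 transcripts, of 20522 symbols in the table. TPM divides the reads of a transcript by its length and scales each library to a fixed total of 1000000, so a value is a length-corrected share of the library and levels of different genes can be compared. The depth of the libraries is unknown, since TPM keeps none.

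RNA was sequenced in 6 libraries from the ear skin of female C57BL6/N mice, 8 weeks old. The 3 ETA sheets were the upper epidermis, detached with exfoliative toxin A, which comes from staphylococci and cuts desmoglein 1, and they hold the granular cells that the labels name SG1 and SG2. The 3 epidermal sheets were the whole epidermis, lifted off with dispase. Both were incubated at 37 °C, but in different solutions, and an effect of the solution cannot be told apart from one of the layer. The labels name no animal for a sheet, so a p-value covers the variation among these 6 samples alone, and that may be technical. In bulk RNA, fewer cells of a type and less RNA per cell cannot be told apart.

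Groups followed the sample titles, through the library number that title and column header share. In 2 of the 6 columns the header names the other kind of sheet. Grouped by the header names instead, limma called 0 of the 63 tested members and 0 of all 11683 tested genes, with 0 members and 87 genes at an unadjusted p under 0.05. The marker genes followed the titles. Summed TPM of 8 granular cell markers was 106932 to 122763 in ETA sheets, against 4759 to 6851 in epidermal sheets, and that of 7 basal markers was 146 to 279 in ETA sheets, against 16944 to 19278. The 4 spinous markers summed to 33341 to 46278 in ETA sheets, against 31279.5 to 35632 in epidermal sheets, and overlapped. Markers of other cells were also compared. Langerhans cell markers summed to 304 to 459 TPM in ETA sheets, against 947 to 1127, and fibroblast markers to 53.9 to 59.7, against 7.27 to 10.8. Melanocyte markers summed to 0.815 to 1.66 TPM in ETA sheets, against 37.2 to 40.6, sebaceous markers to 96.8 to 310.5, against 1586 to 2478, and the 3 T cell markers in the table to 0 to 5.18, against 55.9 to 62.4. Hair follicle markers summed to 3.95 to 6.23 TPM in ETA sheets, against 14.8 to 114 in epidermal sheets, skeletal muscle markers to 3.45 to 5.06, against 0 to 2.30, Merkel cell markers to 1.40 to 8.37, against 0 to 3.05, and endothelial markers to 0.304 to 3.77, against 0.517 to 1.13. Mlana, of melanocytes, and Atoh1, of Merkel cells, were listed at 0 in all ETA sheets. The part of these cells in the results below was not tested. ETA sheet replicate 2 listed 209 genes that averaged 10 TPM or more at 0, against 12 to 30 in the other 5 libraries, so a 0 in it may be a failed estimate.

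Initiation begins when eIF1, eIF1A, eIF3 and eIF5 gather on the small ribosomal subunit with the initiator tRNA, which eIF2 carries. The complex is brought to the mRNA by the cap complex, in which eIF4E holds the cap, eIF4G is the scaffold and eIF4A unwinds the leader, helped by eIF4B and eIF4H. The eIF4E-binding proteins block the contact of eIF4E with eIF4G and are themselves regulated by the kinase complex mTORC1. In elongation, eEF1A brings each aminoacyl-tRNA and eEF2 moves the ribosome on by a codon. In the epidermis, keratinocytes pass through the granular layer before they lose their nucleus and organelles and become the dead cells of the surface.

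Most of the factors were lower in ETA sheets, and 5 were higher: Eif4e, Eif5, Eif4h, Eif4g1 and Eif1a. Of the 67 members, 63 had a mean of at least 1 TPM and were tested with limma on log2(TPM + 1), and a gene was called at a Benjamini-Hochberg adjusted p under 0.05. The other 4 were not tested. By their transcripts with a symbol, Eif2s3y, Eif3j2 and Eif4e1b were listed at 0 in all 6 libraries. On the same basis Eif2ak4 was at 3.52 TPM in epidermal sheet replicate 3 and at or near 0 in the other 5. With names filled in by accession, Eif2ak4 was tested and called lower. Of the 63 tested members, 5 (7.94%) were called higher in ETA sheets, against 10.1% of all tested genes, and 51 (81.0%) were called lower, against 63.6%. The median log2 fold change was -1.47 for the members and -1.34 for all tested genes. The median therefore lay 0.13 below that of all genes, and by ETA library the difference was -0.11, -0.22 and -0.12. The direction of this difference depended on the settings, since it was 0.13 with a pseudocount of 0.1 TPM, 0.15 with trimmed-mean scaling and 0.060 after rescaling without the 100 most abundant genes. Every ETA sheet lay above every epidermal sheet for 6 members, against 10.9% of all genes, and below for 53, against 66.0%. Setting the median of each library equal left 12 members higher (19.0%, against 29.1% of all genes) and 14 lower (22.2%, against 18.8%). Under this median centring the median of all genes was 0.16. Trimmed-mean scaling gave 11 higher members (against 24.7% of all genes) and 13 lower (against 23.4%), and rescaling without the 100 most abundant genes gave 6 higher (against 14.0%) and 41 lower (against 50.1%).

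All members together made up 0.941%, 0.714% and 0.762% of all TPM in the ETA sheets, against 2.27%, 2.35% and 2.27% in the epidermal sheets. The share was 2.85-fold lower in ETA sheets, with no overlap. Eef1a1 alone was 26.3%, 20.8% and 16.8% of the member TPM in ETA sheets, against 44.0%, 45.9% and 44.2% in epidermal sheets. Without Eef1a1 the members made up 0.694%, 0.566% and 0.634% in ETA sheets, against 1.27% in each epidermal sheet.

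**Figure D1:**
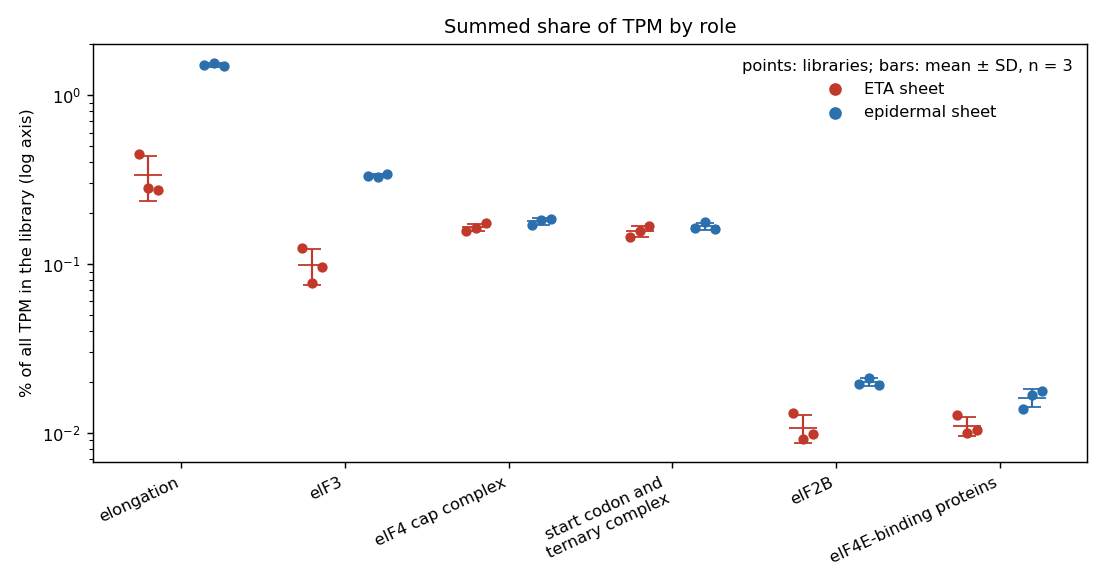
Share of the TPM (percent, log axis) held by the members of 6 roles, by library, with ETA sheets left of epidermal sheets and bars at the mean ± SD. The elongation factors had the largest fold difference in share, with 0.335 ± 0.0998% in ETA sheets, against 1.51 ± 0.0367% in epidermal sheets, and the cap complex genes differed little, at 0.164 ± 0.00834% in ETA sheets, against 0.178 ± 0.00748% (SD, n = 3 each).

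The factors of start codon selection went in different directions. Eif5, which makes eIF2 split its GTP at the start codon, had 432, 545 and 502 TPM in the ETA sheets, against 128, 151 and 137 TPM in the epidermal sheets. Every ETA sheet lay far above every epidermal sheet. The mean was 493 ± 56.7 TPM in ETA sheets, against 139 ± 11.6 TPM in epidermal sheets (SD, n = 3 each), 3.56-fold higher, with a log2 fold change of 1.82 ± 0.17 (SE) and a limma adjusted p of 5.24e-05. Its rank among the members by TPM was 6, 5 and 5 in ETA sheets, against 24, 21 and 24 in epidermal sheets.

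Eif1a, 1 of the genes for eIF1A, had 52.0, 59.1 and 71.3 TPM in ETA sheets, against 36.8, 43.1 and 36.5 TPM in epidermal sheets. The groups did not overlap, but the margin was small. The log2 fold change was 0.63 ± 0.20 (SE; adjusted p by limma 0.0204), and the call was lost without ETA sheet replicate 3 (adjusted p = 0.0808) and without epidermal sheet replicate 1 (0.0603) or 3 (0.0657). Its X-linked relative Eif1ax had 101, 108 and 117 TPM in ETA sheets, against 165, 204 and 193 TPM in epidermal sheets, and was called lower, with a log2 fold change of -0.78 (limma adjusted p = 0.0035) as deposited, but higher after median centring (0.72), and was not called without the 100 most abundant genes (-0.24, adjusted p = 0.203). Per library, the ratio of Eif1a to Eif1ax was 0.516, 0.547 and 0.608 in ETA sheets, against 0.223, 0.212 and 0.189 in epidermal sheets.

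The eIF1 genes differed as well. Eif1, whose protein guards against initiation at wrong codons, had 763, 764 and 887 TPM in ETA sheets, against 958, 1015 and 887 TPM in epidermal sheets. The groups overlapped and it was not called (log2 fold change -0.25 ± 0.15 SE; adjusted p by limma 0.177), but was called higher after median centring (1.25). Its relative Eif1b had 1.51, 0 and 3.60 TPM in ETA sheets, against 55.3, 46.9 and 38.5 TPM in epidermal sheets. Eif1b was close to 0 in every ETA sheet, with a log2 fold change of -4.39 ± 0.51 (SE; adjusted p by limma 0.000136), and was the member with the lowest fold change.

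eIF2 brings the initiator tRNA, and its 3 tested subunit genes were called lower in ETA sheets, as were 63.6% of all tested genes. Eif2s3x had 35.9, 29.7 and 27.1 TPM in ETA sheets, against 113, 123 and 118 TPM in epidermal sheets, 3.82-fold lower. Eif2s1 and Eif2s2 were 3.83-fold and 2.93-fold lower, and of the 3 genes Eif2s3x alone was still called lower after median centring. Of eIF2B, which reloads eIF2 with GTP, 4 of 5 subunit genes were called lower (80%, against 63.6% of all tested genes) and 0 higher. Their median log2 fold change, -0.87, lay above that of all tested genes, -1.34. Eif2b3 had the lowest fold change of the 5, with 2.72, 3.58 and 3.50 TPM in ETA sheets, against 17.6, 19.5 and 35.8 TPM in epidermal sheets. Eif2b4 was not called, at 34.5, 36.8 and 31.5 TPM in ETA sheets, against 46.5, 40.4 and 37.3 TPM (log2 fold change -0.26). It was called lower with its largest transcript alone (-1.04, limma adjusted p = 0.0152) and with library weights (-0.36, 0.0383). The weights were 0.370, 0.341 and 5.37 for ETA sheet replicates 1, 2 and 3, so the weighted ETA mean rested mostly on replicate 3. After median centring, Eif2b1 and Eif2b4 were called higher (40%, against 29.1% of all genes) and Eif2b3 stayed lower (20%, against 18.8%). The kinases that stop eIF2 under stress were at low levels. Eif2ak1, activated by lack of heme, had 17.5, 14.2 and 10.7 TPM in ETA sheets, against 24.4, 33.4 and 28.2 TPM in epidermal sheets, and was called lower, but not without the 100 most abundant genes (limma adjusted p = 0.104). Eif2ak2, activated by double-stranded RNA, and Eif2ak3, of the endoplasmic reticulum, were called lower too, with 0 of the 3 called after median centring and Eif2ak1 and Eif2ak3 above 0.

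All 13 tested eIF3 genes were called lower in ETA sheets (100%, against 63.6% of all tested genes). Their median log2 fold change was -1.75, against -1.34 for all tested genes. Together their share of TPM was 0.0991 ± 0.0238% in ETA sheets, against 0.335 ± 0.00647% in epidermal sheets (SD, n = 3 each), 3.38-fold lower. Eif3h had the highest mean over all 6 libraries, with 224, 117 and 167 TPM in ETA sheets, against 595, 610 and 644 TPM in epidermal sheets. In ETA sheets alone the mean of Eif3f was higher (175 TPM, against 169 TPM for Eif3h). Eif3e had the lowest fold change, with 91.8, 68.6 and 84.8 TPM in ETA sheets, against 376, 436 and 428 TPM in epidermal sheets. It was 5.06-fold lower, with a log2 fold change of -2.33 ± 0.18 (SE; adjusted p by limma 2.56e-05). Eif3m had 75.4, 40.9 and 51.6 TPM in ETA sheets, against 272, 264 and 274 TPM in epidermal sheets. Eif3a, the largest subunit, had the highest, at -1.15. After median centring, 2 of the 13 (15.4%, against 18.8% of all genes), Eif3e and Eif3m, were still called lower. Of the 13, 0 were called higher (against 29.1% of all genes), with Eif3a, Eif3f, Eif3g and Eif3l above 0. Their levels spanned a similar range in both groups, since the highest was 9.41, 9.02 and 7.67 times the lowest in ETA sheets, against 9.28, 7.44 and 8.76 times in epidermal sheets.

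The cap complex held 3 of the 5 higher members. Of its 10 tested genes, 3 were called higher (30%, against 10.1% of all tested genes) and 6 lower (60%, against 63.6%). After median centring 3 were higher (30%, against 29.1%) and 1 lower (10%, against 18.8%), so the higher share was then close to that of all genes. The cap complex genes together took 0.157%, 0.162% and 0.174% of all TPM in ETA sheets, against 0.170%, 0.181% and 0.184% in epidermal sheets. Eif4e, whose protein binds the mRNA cap, had 99.0, 164 and 134 TPM in ETA sheets, against 32.2, 38.5 and 38.2 TPM in epidermal sheets. The groups did not overlap. It was 3.64-fold higher in ETA sheets, with 132 ± 32.4 TPM in ETA sheets, against 36.3 ± 3.59 TPM in epidermal sheets (SD, n = 3 each), a log2 fold change of 1.81 ± 0.23 (SE) and a limma adjusted p of 0.000199. Its rank among the members was 19, 10 and 13 in ETA sheets, against 48, 47 and 42 in epidermal sheets.

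Eif4h, which stimulates the helicase eIF4A, had 632, 775 and 742 TPM in ETA sheets, against 268, 261 and 284 TPM in epidermal sheets. It was 2.64-fold higher (log2 fold change 1.39 ± 0.16 SE; adjusted p by limma 0.000124) and ranked 5, 2 and 3 among the members in ETA sheets, against 15, 15 and 13 in epidermal sheets. Eif4b, with a related role beside eIF4A, went the other way, with 45.2, 32.8 and 32.3 TPM in ETA sheets, against 185, 184 and 184 TPM in epidermal sheets. It was 5.01-fold lower in ETA sheets (limma adjusted p = 3.55e-05) and stayed lower after median centring.

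Eif4g1, the main scaffold, had 224, 196 and 207 TPM in ETA sheets, against 128, 170 and 152 TPM in epidermal sheets. It was 1.40-fold higher with no overlap (log2 fold change 0.49 ± 0.18 SE; adjusted p by limma 0.0339). The call was lost without ETA sheet replicate 3 (adjusted p = 0.0792), without epidermal sheet replicate 1 (0.115) or 3 (0.0765), and without a variance trend (0.0847). Eif4g2, which lacks the eIF4E-binding part, was lower, with 127, 96.1 and 118 TPM in ETA sheets, against 217, 250 and 270 TPM in epidermal sheets, though above 0 (0.39) after median centring. Eif4g3 was called lower at 4.85, 0 and 3.40 TPM in ETA sheets, against 7.14, 12.8 and 17.3 TPM. The Eif4g3 call was lost after median centring or trimmed-mean scaling (limma adjusted p = 0.430 and 0.303), with a pseudocount of 0.1 TPM (0.0620), with no filter (0.0516), without the 100 most abundant genes (0.0726) and without epidermal sheet replicate 2 (0.0539) or 3 (0.0680).

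The main helicase gene Eif4a1 had 392.1, 334 and 469 TPM in ETA sheets, against 782, 829 and 815 TPM in epidermal sheets, 2.03-fold lower (limma adjusted p = 0.000869). This fall was smaller than the median of all genes, and after median centring its log2 fold change was 0.46. Eif4a2 had 21.3, 3.83 and 11.1 TPM in ETA sheets, against 17.2, 18.8 and 37.0 TPM in epidermal sheets, overlapped and was not called (log2 fold change -1.13). Leaving out ETA sheet replicate 1 gave a lower call (-1.65, limma adjusted p = 0.0225), and the value was -0.54 without ETA sheet replicate 2. Library weights, which favor ETA sheet replicate 3, gave a lower call too (0.0199). The cap-binding relatives Eif4e2 and Eif4e3 were called lower, Eif4e2 at 27.9, 15.2 and 19.5 TPM in ETA sheets, against 53.3, 39.9 and 33.2 TPM in epidermal sheets. After median centring Eif4e2 was above 0 (0.50) and Eif4e3 below (-0.53), and neither was called. The Eif4e2 call was also lost with its largest transcript alone (log2 fold change -0.10, limma adjusted p = 0.904), without the 100 most abundant genes (0.136) and without epidermal sheet replicate 1 (0.0520).

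The E-box, the letters CACGTG, is bound by MYC and related factors, and it lies in the promoters of Eif4e, Eif4h and Eif4g1. The promoters below are the 120 bases before the start of 6 members that moved in opposite directions, from RefSeq on GRCm38.p6. They are written 5′ to 3′ on the strand of the gene, with matches in capitals to the E-box (CACGTG), the cyclic AMP response element (TGACGTCA), the CCAAT box (CCAAT), the GC box (GGGCGG) or the TATA box (TATAAA), on either strand. They are Eif4e at chr3:138527148-138527267 (+), Eif4h at chr5:134639410-134639529 (-), Eif4g1 at chr16:20672607-20672726 (+), Eif5 at chr12:111537981-111538100 (+), Eef2 at chr10:81176511-81176630 (+) and Eef1a1 at chr9:78481725-78481844 (-). The first 4 belong to genes that were higher in ETA sheets and the last 2 to genes that were lower.
Eif4e: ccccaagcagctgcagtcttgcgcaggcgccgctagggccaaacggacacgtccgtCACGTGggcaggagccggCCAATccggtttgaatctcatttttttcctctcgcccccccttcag
Eif4h: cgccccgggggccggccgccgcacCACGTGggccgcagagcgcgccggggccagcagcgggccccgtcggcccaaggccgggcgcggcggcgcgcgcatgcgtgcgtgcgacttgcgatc
Eif4g1: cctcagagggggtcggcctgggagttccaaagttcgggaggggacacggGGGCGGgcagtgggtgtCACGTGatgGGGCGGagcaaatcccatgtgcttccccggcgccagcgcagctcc
Eif5: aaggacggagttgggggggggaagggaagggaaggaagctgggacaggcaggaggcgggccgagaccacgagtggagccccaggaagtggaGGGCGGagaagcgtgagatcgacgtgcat
Eef2: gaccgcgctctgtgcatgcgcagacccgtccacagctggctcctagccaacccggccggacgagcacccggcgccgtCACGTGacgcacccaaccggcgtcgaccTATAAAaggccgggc
Eef1a1: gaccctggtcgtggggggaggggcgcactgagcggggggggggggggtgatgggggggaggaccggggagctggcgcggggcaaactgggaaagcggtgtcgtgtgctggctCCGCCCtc
The sequences show an E-box in Eif4e, Eif4h and Eif4g1 and also in Eef2, which was lower. A second annotated start of Eif4e has none of the 5 motifs in its 120 bases. In the 250 bases before any start of a gene, 3 of the 4 higher members in the table held an E-box (Eif4e, Eif4h and Eif4g1, but not Eif5), against 8 of the 40 lower members. It was in 11 of the 51 members in the table (21.6%) and in 6.86% of all 27025 genes there, long noncoding RNA genes included. The GC box was in 72.5% of the members and 35.4% of all genes, the CCAAT box in 29.4% and 37.5%, and the TATA box in 9.80% and 14.3%. The cyclic AMP response element was in 0 of the members and 1.77% of all genes. A match is a run of letters and says nothing of binding in these cells.

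The genes for the eIF4E-binding proteins were low relative to Eif4e in ETA sheets. Eif4ebp1 had 15.7, 25.1 and 14.2 TPM in ETA sheets, against 36.8, 44.96 and 65.1 TPM in epidermal sheets, and was called lower, with a log2 fold change of -1.37 as deposited and 0.12 after median centring. Eif4ebp2 had 80.3, 63.9 and 64.6 TPM in ETA sheets, against 45.5, 57.2 and 46.2 TPM in epidermal sheets. Its groups did not overlap, but it missed the threshold (log2 fold change 0.48 ± 0.20 SE, adjusted p by limma 0.0529). It was called higher after median centring or trimmed-mean scaling and without the 100 most abundant genes (0.0011). The same held with pseudocounts of 0.1 (0.0481) or 5 TPM (0.0484), no filter (0.0467), a minimum mean of 5 TPM (0.0484) or library weights (0.0245). It was also called without ETA sheet replicate 2 or epidermal sheet replicate 2, but not without any other library, with a replicate block or without a variance trend. Eif4ebp3 had 16.96, 0 and 11.9 TPM in ETA sheets, against 23.9, 27.7 and 31.0 TPM in epidermal sheets, and was not called (log2 fold change -2.21). Without ETA sheet replicate 2, where it was listed at 0, it was -0.90 and called lower (limma adjusted p = 0.0137). It was also called lower without ETA sheet replicate 1 (0.0309), with a pseudocount of 5 TPM (0.0265), a minimum mean of 5 TPM (0.0488) or library weights (0.0416). Eif4enif1, which carries eIF4E into the nucleus, was called lower as deposited, though not after median centring, at 12.5 ± 1.67 TPM in ETA sheets, against 34.6 ± 2.02 TPM in epidermal sheets (SD, n = 3 each).

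The summed TPM of Eif4ebp1, Eif4ebp2 and Eif4ebp3 was 113, 88.9 and 90.7 in ETA sheets, against 106, 130 and 142 in epidermal sheets, and the groups overlapped. This sum was 1.14, 0.543 and 0.677 times the TPM of Eif4e in ETA sheets, against 3.30, 3.37 and 3.72 times in epidermal sheets. For this ratio the groups lay well apart. The summed eIF3 TPM was 12.6, 4.70 and 7.17 times that of Eif4e in ETA sheets, against 104, 85.3 and 89.3 times in epidermal sheets.

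A ratio of 2 genes within a library hardly depends on its scaling, and 15 pairs were compared with a two-sided exact permutation test of the log2 ratio. With 3 libraries against 3 the smallest p is 0.1, so no pair could pass the threshold, and after adjustment over the 15 pairs the smallest was 0.125. In 12 of the 15 pairs the groups did not overlap. The share over other pairs of genes was not computed. Of all tested genes taken singly, 10.9% lay above and 66.0% below in every ETA sheet. The pairs over Eif4e share its change and are not separate results. The ratio of Eif4e2 to Eif4e was lower in every ETA sheet, by 2.81 on the log2 scale, that of Eif4ebp1 to Eif4e by 3.18 and that of Eif4g2 to Eif4g1 by 1.59. For Eif4g2 and Eif4g1 the ratio of TPM was 0.567, 0.489 and 0.570 in ETA sheets, against 1.70, 1.47 and 1.78 in epidermal sheets. The smallest difference was in the ratio of Eif4a3 to Eif4a1, which was 0.191, 0.146 and 0.144 in ETA sheets, against 0.143, 0.159 and 0.161 in epidermal sheets (exact permutation p = 0.8).

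**Figure D2:**
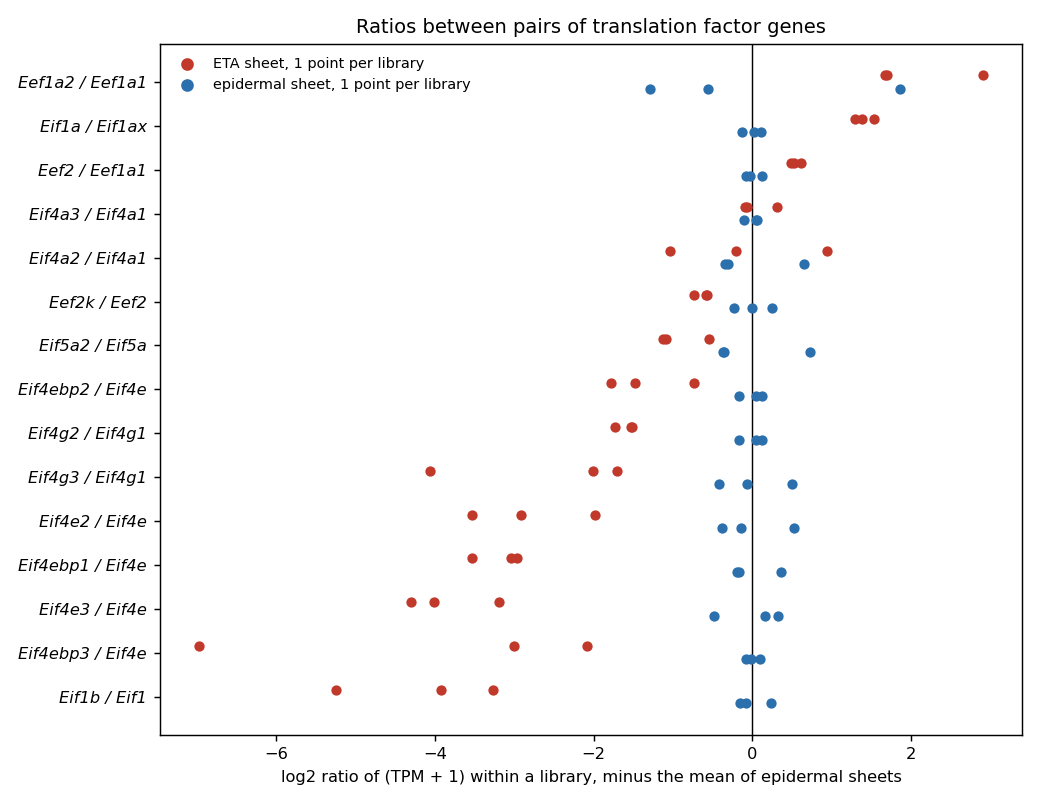
Log2 ratio of (TPM + 1) of each pair in each library, minus the mean of the epidermal sheets, with ETA sheets drawn above epidermal sheets. Points of ETA sheets lie apart from those of epidermal sheets in 12 of 15 pairs, and overlap for Eif4a2 to Eif4a1, Eif4a3 to Eif4a1 and Eef1a2 to Eef1a1. The share over other pairs of genes was not computed.

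**Figure D3:**
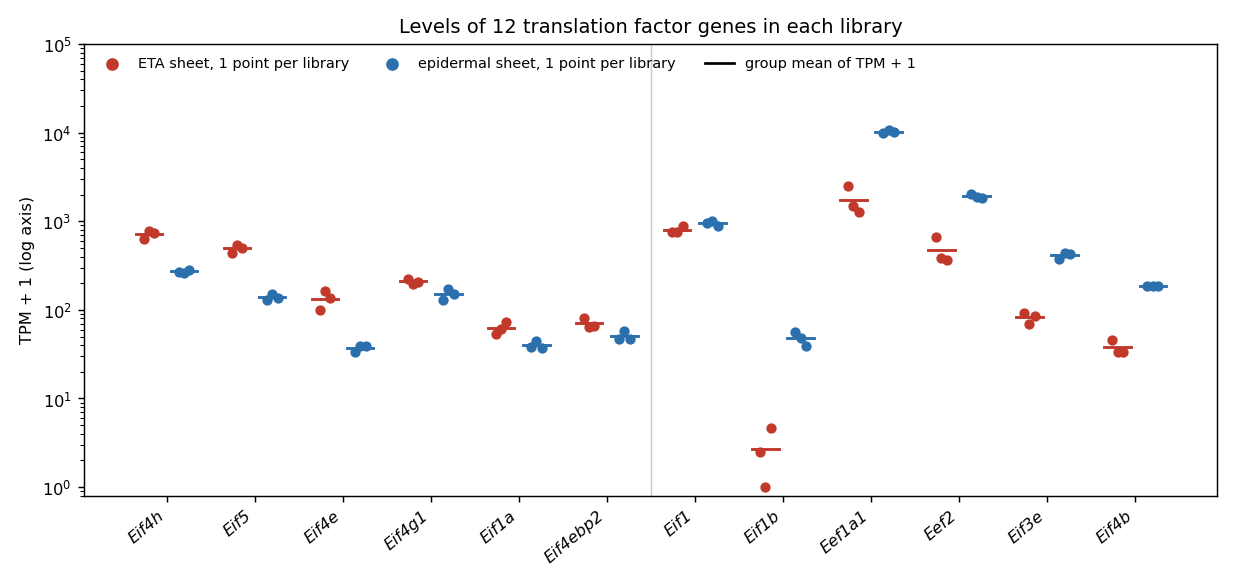
TPM + 1 (log axis) of 12 members in each library, with ETA sheets left of epidermal sheets and lines at the group means. Eif4e, Eif5 and Eif4h lie higher in all ETA sheets, whereas Eef1a1 and Eef2 lie lower.

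The elongation role had the lowest median log2 fold change of the roles, -2.20, against -1.34 for all genes. Of 10 tested, 9 were called lower (90%, against 63.6% of all genes). After median centring 6 of them stayed lower (60%, against 18.8%), with 1 higher (Eif5a). The role takes in Eef1e1 and Eef2k by symbol, which are not elongation factors themselves. These had its lowest values, -2.85 and -2.71, and are among the 6. The median without them was not computed. Eef1a1, the most abundant member, had 2472, 1486 and 1281 TPM in ETA sheets, against 9991, 10767 and 10050.3 TPM in epidermal sheets. It was 5.88-fold lower (log2 fold change -2.61 ± 0.25 SE; adjusted p by limma 5.54e-05). Eef2 had 663, 388 and 367 TPM in ETA sheets, against 2025, 1898 and 1843 TPM in epidermal sheets. It was 4.07-fold lower, and ranked 4, 6 and 7 among the members in ETA sheets, against 2 in each epidermal sheet.

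The genes of the complex that reloads eEF1A with GTP were lower too. Eef1b2 had 225, 134 and 137 TPM in ETA sheets, against 870.0, 771 and 785 TPM in epidermal sheets, 4.89-fold lower. Eef1d had 31.3, 13.5 and 21.9 TPM in ETA sheets, against 155, 144 and 121 TPM in epidermal sheets, 6.28-fold lower. Both stayed lower after median centring, whereas Eef1g, 3.03-fold lower as deposited, was not called then. Eef1e1, a small scaffold protein of the aminoacyl-tRNA synthetase complex, had 6.43, 5.83 and 4.49 TPM in ETA sheets, against 44.9, 45.4 and 47.9 TPM in epidermal sheets, 8.25-fold lower. Eef2k, the kinase that inactivates eEF2, had 9.26, 5.72 and 5.29 TPM in ETA sheets, against 43.2, 47.5 and 54.97 TPM in epidermal sheets, 7.19-fold lower, and stayed lower after median centring. Eif5a, which helps the ribosome past difficult stretches and carries the modified amino acid hypusine, fell least of those called, with 815, 577 and 725 TPM in ETA sheets, against 1158, 1154 and 1201 TPM in epidermal sheets, and was called higher after median centring (0.75). Its lower call was lost with the largest transcript alone (-0.24, limma adjusted p = 0.264) and without the 100 most abundant genes (-0.20, 0.229). Eef1a2, the form of muscle and neurons, was at most 1.74 TPM in ETA sheets and 7.92 TPM in epidermal sheets, and was not called. Eif5a2 was at most 0.330 TPM in ETA sheets and 5.45 TPM in epidermal sheets, and its lower call was lost with median centring and with trimmed-mean scaling (limma adjusted p = 0.761 and 0.0708).

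The factors that act late or outside the general steps were mostly lower. Eif5b, which joins the ribosomal subunits, had 15.05, 9.43 and 15.3 TPM in ETA sheets, against 30.9, 33.1 and 32.9 TPM in epidermal sheets, and Eif6, which keeps them apart, had 143, 77.3 and 123 TPM in ETA sheets, against 305, 272 and 243 TPM. Neither call was kept after median centring, where both lay above 0. Of 8 other symbols, 7 were called lower (87.5%, against 63.6% of all tested genes). Eif4a3, a helicase of the exon junction complex and the most abundant of them, had 75.1, 48.6 and 67.4 TPM in ETA sheets, against 112, 132 and 131 TPM in epidermal sheets, and was called higher after median centring (0.51). The methyltransferase genes Eef1akmt1 and Eef1akmt2, which act on eEF1A, stayed lower after median centring, with 7.97, 0 and 4.69 TPM for Eef1akmt1 in ETA sheets, against 32.8, 41.4 and 36.8 TPM in epidermal sheets. The centred call of Eef1akmt1 was close to the threshold (limma adjusted p = 0.0492) and was lost with trimmed-mean scaling (0.0691). Eef1akmt2 had 4.52, 0 and 2.04 TPM in ETA sheets, against 21.5, 23.4 and 31.4 TPM. Eef1akmt3 was not called, with 9.51, 0 and 4.40 TPM in ETA sheets, against 0, 2.93 and 12.9 TPM.

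Several members share sequence with other genes, so the reads of short fragments may be split or misplaced. The share of their transcripts' 25-base words that also occur in other GENCODE genes was 74.8% for Eef1a1, 69.3% for Eef1g and 68.1% for Eif4a1. It was 66.7% for Eif4ebp3, 60.0% for Eif3m, 51.8% for Eif4a3 and 51.1% for Eif3e. The TPM values of these genes are uncertain to that extent. For Eif3j2, listed at 0, the share was 95.8%, with 95.1% found in Eif3j1, so its 0 is uncertain too. For the higher members it was 0.296% for Eif4h, 2.20% for Eif4g1, 8.91% for Eif1a, 10.5% for Eif5 and 11.5% for Eif4e. The share was under 1% for 22 of the 67 members, over 20% for 15, and 3.77% at the median. The transcripts of the 5 higher members were longer, with a median of 4050 bases, against 2514 for the 51 lower ones, and had 41.7% GC against 49.8%. The transcripts of a gene did not always move alike. Nearly all Eif5 TPM came from 1 of its 2 transcripts. Eif4h had 2, and only 1 separated the groups, with 395, 661 and 515 TPM in ETA sheets, against 155, 97.7 and 259 TPM in epidermal sheets.

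The other genes of translation were counted by list, beside 10.1% of all tested genes called higher and 63.6% lower as deposited, and 29.1% higher and 18.8% lower after median centring. All 81 tested cytosolic ribosomal protein genes were called lower, with a median log2 fold change of -2.09. Median centring left 55 lower and 0 higher. They held 6.08 ± 1.61% of all TPM in ETA sheets, against 24.6 ± 1.76% in epidermal sheets (SD, n = 3 each). Rplp1, of the ribosome stalk, was the most abundant, with 4263, 2386 and 2392 TPM in ETA sheets, against 14988, 12891 and 14016 TPM in epidermal sheets. Rps27 had the lowest fold change, with 4.11, 4.98 and 1.01 TPM in ETA sheets, against 39.9, 34.7 and 26.5 TPM. Rpl36al fell least, with a log2 fold change of -1.16. The member TPM was 0.119, 0.141 and 0.145 times that of the ribosomal proteins in ETA sheets, against 0.0853, 0.101 and 0.0944 times in epidermal sheets. Of 77 mitochondrial ribosomal protein genes 73 were lower and 1, Mrpl14, was higher (25 and 8 after median centring). Mrpl14 had 165, 235 and 195 TPM in ETA sheets, against 107, 137 and 109 TPM in epidermal sheets. Mrpl52 had the highest mean over all 6 libraries but lay below Mrpl14 in ETA sheets, with 92.5, 120.1 and 93.7 TPM in ETA sheets, against 377, 252 and 260.2 TPM. Mrpl2 was lowest in fold change, with 10.4, 0 and 8.10 TPM in ETA sheets, against 76.4, 56.4 and 79.0 TPM.

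Among 13 poly(A)-binding and cap complex partners 1 was higher (7.69%, against 10.1% of all genes) and 10 were lower (76.9%, against 63.6%). After median centring 6 were higher (46.2%, against 29.1%) and 1 lower (7.69%, against 18.8%). Pabpc1, the main poly(A)-binding protein and a partner of eIF4G, was the higher one, with 592, 761 and 721 TPM in ETA sheets, against 403, 413 and 391 TPM in epidermal sheets (log2 fold change 0.77 ± 0.16 SE; adjusted p by limma 0.00276). Pabpc4 was lower, with 1.57, 1.73 and 0.499 TPM in ETA sheets, against 18.7, 23.8 and 29.2 TPM. Of 16 genes of mTORC1 and MNK signaling 2 were higher (12.5%) and 10 lower (62.5%), shares near those of all genes (10.1% and 63.6%). After median centring 6 were higher (37.5%, against 29.1% of all genes) and 1 lower (6.25%, against 18.8%). Of these Sesn2, a restraint on mTORC1, had 50.7, 58.8 and 38.9 TPM in ETA sheets, against 22.1, 20.9 and 16.1 TPM. Rps6, a ribosomal protein and target of S6 kinase, was the most abundant, with 439, 314 and 313 TPM in ETA sheets, against 2036, 1798 and 1849 TPM in epidermal sheets. Mknk1, a kinase of eIF4E, was near 0 in 2 ETA sheets and at 5.92 TPM in the other, against 19.1, 9.03 and 6.34 TPM.

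The list of integrated stress response targets had the highest median of the lists, 0.02, with 4 of 10 higher and 4 lower (6 and 2 after median centring). Ppp1r15a, whose protein directs the phosphatase that restores eIF2, had 374, 606 and 468 TPM in ETA sheets, against 153, 161 and 123 TPM in epidermal sheets (log2 fold change 1.70 ± 0.22 SE; adjusted p by limma 0.000226). Atf3, a transcription factor of the response and also an early gene, had 59.9, 90.2 and 46.6 TPM in ETA sheets, against 780, 901 and 722 TPM in epidermal sheets. Of 22 aminoacyl-tRNA synthetase genes 2 were higher (9.09%, against 10.1% of all genes) and 17 lower (77.3%, against 63.6%). After median centring 5 were higher (22.7%, against 29.1%) and 8 lower (36.4%, against 18.8%). Cars had 55.8, 72.0 and 72.2 TPM in ETA sheets, against 30.6, 24.8 and 23.3 TPM in epidermal sheets. Farsb had 3.58, 0 and 1.42 TPM in ETA sheets, against 27.1, 8.94 and 35.3 TPM. Qars had the highest mean over all 6 libraries, with 112, 55.7 and 58.9 TPM in ETA sheets, against 192, 194 and 163 TPM in epidermal sheets. In ETA sheets Rars led, with 101, 119 and 111 TPM, against 60.3, 70.5 and 88.7 TPM in epidermal sheets. All 5 tested release and recycling genes were lower, as were 8 of 9 mitochondrial translation factors and 9 of 11 genes of factor modification. After median centring 1, 1 and 4 of these were lower, and 1 of each list was higher. Etf1, the release factor, had 51.5, 35.1 and 37.8 TPM in ETA sheets, against 95.7, 111 and 98.5 TPM in epidermal sheets, and Abce1, which splits the ribosome afterwards, had 8.08, 3.54 and 7.32 TPM in ETA sheets, against 34.1, 45.7 and 41.99 TPM. Of the mitochondrial factors, Tufm had 16.2, 2.17 and 9.31 TPM in ETA sheets, against 44.5, 49.1 and 33.8 TPM in epidermal sheets, and Mtif2 had 3.86, 0.782 and 3.65 TPM in ETA sheets, against 17.5, 26.3 and 27.2 TPM. Dohh, an enzyme of hypusine synthesis on eIF5A, was not called, with 108, 41.6 and 77.5 TPM in ETA sheets, against 92.3, 87.1 and 70.99 TPM in epidermal sheets. The called genes that fell least were Hbs1l of release and recycling (-0.63), Gfm2 of the mitochondrial factors (-0.93) and Dhps of factor modification (-0.96). Hbs1l was called higher after median centring (0.87).

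**Figure D4:**
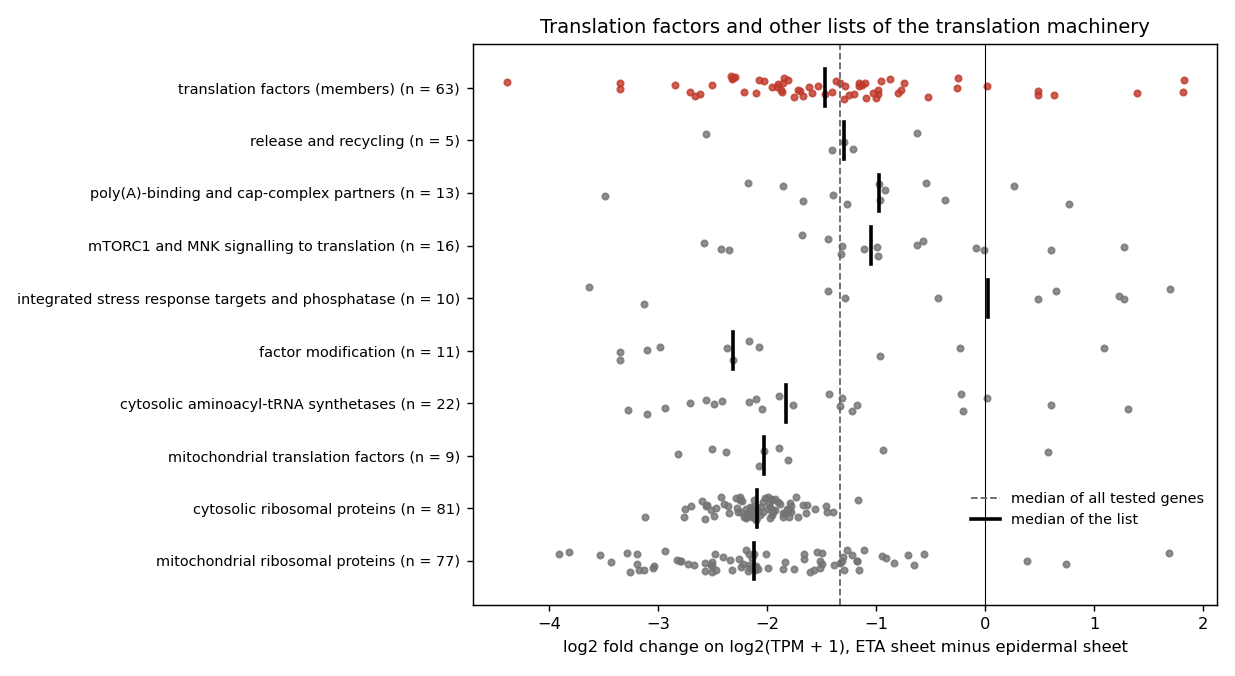
Log2 fold change on log2(TPM + 1), ETA sheet minus epidermal sheet, of each tested gene of the members and the other lists, with the list median as a bar and the median of all tested genes (-1.34) dashed. The integrated stress response list has its median at 0.02, and the cytosolic ribosomal proteins have theirs at -2.09.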

How the data were processed

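Total RNA of ETA and epidermal sheets was sequenced as paired reads of 25 bp with a directional kit, per the labels. The authors deposited TPM for 37903 transcripts in 6 columns; the submitters' processing notes name Salmon, Bowtie2 and the build mm9, with no roles, and RefSeq accessions name the transcripts. Transcripts without a symbol (7951, holding 3.57% to 6.65% of TPM) stayed out. Columns were given to samples by library number; in 4 of 6 the header's sheet name differs from the title. TPM was summed per symbol, and 11683 genes averaging 1 TPM or more were tested on log2(TPM + 1) with limma 3.58.1 in R 4.3.3 (trended empirical Bayes, Benjamini-Hochberg over all genes, threshold 0.05). Fold changes on this scale understate low genes, and each fold is a ratio of group means. Pair ratios, promoter motifs (250 bases, RefSeq GRCm38.p6, matched by symbol) and shared 25-base words (GENCODE, GRCm38) were computed with Python 3.11.15 and numpy 2.4.6. The fit was tested on simulated data. The members, roles and lists were chosen with earlier results of these data known. Named genes are, per role, the most abundant, the highest and lowest by fold change, all called higher, all called lower after median centring and the fixed pairs; per list, the most abundant and the extreme called genes. Alternatives were other pseudocounts, filters, scalings, weights, transcript summaries, a replicate block, header groups and leaving out each library.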

Additional observations from a re-analysis of the deposited data

How the results depend on the processing

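Counts of calls depended on scaling. Higher members numbered 5 as deposited, 12 after median centring, 11 with trimmed-mean scaling and 16 after median centring without ETA sheet replicate 2 (added after seeing the data); lower members numbered 51, 14, 13 and 15. Of all genes, 3405, 2888 and 3399 were then higher and 2202, 2739 and 2274 lower. Leaving out 1 library gave 3 to 6 higher and 46 to 53 lower members. With header names as groups, limma called 0 members and 0 genes (87 at an unadjusted p under 0.05). The numbers of the replicates did not pair the samples (correlations of deviations -0.0445 to 0.0194), and the replicate block gave 3 higher and 53 lower members, with adjusted p of 0.0567 for Eif1a and 0.0852 for Eif4g1, and lower calls for Eif4a2 (0.0434) and Eif4ebp3 (0.0160). Eif4e, Eif4h and Eif5 kept their calls under all alternatives except header groups. Calls with library weights rest mostly on ETA sheet replicate 3, whose weight was 5.37, against 0.370 and 0.341 for ETA sheet replicates 1 and 2. The members' median minus that of all genes, -0.13, became 0.13 with a pseudocount of 0.1, -0.36 with 5, -0.72 with no filter, 0.15 with trimmed-mean scaling, 0.060 without the 100 most abundant genes and -0.066 by header names.

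Signs of log2 fold changes turned under median centring for 25 of the 63 members. Among those the naming rule takes, with the trimmed-mean value second, they were Eef1a2 (0.97, 0.10), Eif1 (1.25, 1.26), Eif1ax (0.72, 0.72), Eif2ak1 (0.51, 0.45), Eif2b4 (1.23, 1.203), Eif3a (0.34, 0.33), Eif4a1 (0.46, 0.47), Eif4a2 (0.36, 0.26), Eif4a3 (0.51, 0.51), Eif4e2 (0.50, 0.46), Eif4ebp1 (0.12, 0.083), Eif4g2 (0.39, 0.39), Eif5a (0.75, 0.76), Eif5b (0.24, 0.18) and Eif6 (0.20, 0.21). The other 10 were Eif2b1, Eif2b2, Eif2b5, Eif2ak3, Eif3f, Eif3g, Eif3l, Eif4enif1, Eif1ad and Eif2d, between 0.02 and 0.69 after centring. Without the 100 most abundant genes Eif1 was at 0.30 and Eif2b4 at 0.27. By header names Eef1a2 was at 0.93, Eif4ebp2 at -0.043, the ratio of Eif4a3 to Eif4a1 at -0.12 and that of Eef2k to Eef2 at 0.0195. With 1 library left out, Eef1akmt3 ranged from -0.94 to 0.99 (-0.019 with a pseudocount of 5), Eef1a2 from -1.19 to 0.39, the log2 ratio of Eif4a2 to Eif4a1 from -0.62 to 0.37 and that of Eif4a3 to Eif4a1 from -0.081 to 0.12. The cause was not tested. Depth is unknown, and a 0 in ETA sheet replicate 2 may be a failed estimate.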

Other observations

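Transcripts without a symbol were not in the sums. By accession, 11 of them belong to 8 of the members and to no further symbol matching the rule. A noncoding transcript of Eif4a2 had 9.42, 13.3 and 6.11 TPM in ETA sheets, against 55.2, 56.7 and 70.3 TPM in epidermal sheets. Another of Eif4a2 had 1.99, 0 and 0 TPM, against 8.03, 0 and 0 TPM. With these added, Eif4a2 was called lower in ETA sheets, with a log2 fold change of -1.98 (limma adjusted p = 0.000355). What the noncoding transcript adds to eIF4A2 protein was not measured. Eif2ak4 gained a transcript with 0.376, 0 and 0.167 TPM in ETA sheets, against 3.79, 2.81 and 0 TPM in epidermal sheets. With names filled in, Eif2ak4 was tested and called lower.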
